A study of Mus musculus with 6 samples.

Results

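Expression of cell cycle regulators and DNA replication genes was examined in the soleus, a postural calf muscle, of control C57Bl/6 mice. The 8 genes were Ccnd1, Cdk4, Cdkn1a, Rb1, Pcna, Pold1, Pola1 and Top3a, out of 203 genes named by the platform annotation, and each had 1 probe. They were chosen by name, not by their values. Total RNA (3 µg per array) came from cryosections of the muscle, and the 6 arrays, labelled control 1 to 6, form 1 group of control mice with no treatment stated. The titles also carry the letters HUR wt, which the labels do not explain. Separate mice for the 6 arrays are not stated, and every p-value below therefore measures only the spread between these samples, which may be technical. With 1 group there was no comparison between conditions, and the values describe detection, level and spread.

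In a dividing cell, cyclin D1 (Ccnd1) binds and activates the kinase Cdk4, which phosphorylates the retinoblastoma protein Rb1 and so releases E2F transcription factors. E2F factors switch on genes needed for DNA synthesis. Among the gene products that copy DNA are the sliding clamp Pcna, the catalytic subunit of DNA polymerase delta (Pold1) and that of DNA polymerase alpha (Pola1), while Top3a is a topoisomerase that resolves DNA strands. Cdkn1a, also called p21, inhibits cyclin-dependent kinases, binds Pcna and is a classical target of p53. Muscle fibres have left the cell cycle, and a whole muscle also holds cells that can divide, such as satellite, endothelial and connective tissue cells. In RNA from whole muscle, fewer cells of a type and less RNA per cell cannot be told apart. Below, Ccnd1 and Cdk4 are called drivers and Cdkn1a and Rb1 brakes.

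Promoter sequences were available for 5 of the 8 genes, Cdk4, Cdkn1a, Pcna, Pold1 and Pola1. The windows of 300 bases, from 250 bases before the RefSeq start site to 50 after it, come from build GRCm38.p6. Those shown here belong to Pold1 and Pola1, replication genes with an E2F motif, and to Cdk4 and Cdkn1a, whose ratio within an array varied widely between samples. Capitals mark matches, on either strand, to TTTCCCGC, TTTGGCGC or TTTCGCGC, forms of the E2F motif, in the polymerase genes. They mark the E-box CACGTG, bound by Myc and related factors, in Cdk4, and the p53 response element decamer in Cdkn1a.
Pold1 (chr7:44548766-44549065, minus strand): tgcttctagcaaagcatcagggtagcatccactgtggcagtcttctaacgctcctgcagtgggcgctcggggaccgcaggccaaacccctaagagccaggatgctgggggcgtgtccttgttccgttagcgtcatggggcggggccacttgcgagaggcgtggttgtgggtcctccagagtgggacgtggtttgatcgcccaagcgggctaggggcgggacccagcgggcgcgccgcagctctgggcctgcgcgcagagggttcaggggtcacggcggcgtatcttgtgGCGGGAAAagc
Pola1 (chrX:93632106-93632405, minus strand): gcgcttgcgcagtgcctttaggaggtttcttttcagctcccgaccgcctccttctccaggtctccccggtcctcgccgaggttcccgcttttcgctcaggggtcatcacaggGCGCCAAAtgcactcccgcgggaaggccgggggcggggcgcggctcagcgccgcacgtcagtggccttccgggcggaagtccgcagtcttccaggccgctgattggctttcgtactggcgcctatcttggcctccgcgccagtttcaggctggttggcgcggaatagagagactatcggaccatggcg
Cdk4 (chr10:127063285-127063584, plus strand): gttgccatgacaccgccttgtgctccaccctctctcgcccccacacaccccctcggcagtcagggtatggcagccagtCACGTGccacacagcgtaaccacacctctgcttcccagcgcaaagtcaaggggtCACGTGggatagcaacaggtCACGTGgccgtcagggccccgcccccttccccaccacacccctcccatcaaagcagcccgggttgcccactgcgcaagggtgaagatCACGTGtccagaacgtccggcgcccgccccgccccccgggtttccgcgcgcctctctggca
Cdkn1a (chr17:29090729-29091028, plus strand): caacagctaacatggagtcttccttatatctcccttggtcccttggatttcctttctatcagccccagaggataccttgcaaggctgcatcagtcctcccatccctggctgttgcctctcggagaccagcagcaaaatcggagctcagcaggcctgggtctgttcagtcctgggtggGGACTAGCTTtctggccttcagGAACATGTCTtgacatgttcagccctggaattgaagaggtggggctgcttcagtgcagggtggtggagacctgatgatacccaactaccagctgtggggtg
One of these E2F forms lay in 606 of 32851 promoter windows of the mouse genome (1.84%). The Pold1 window held 1, beginning at base 40 of the transcribed part, and the Pola1 window held 1, beginning at base -138, while these letters are not in the Pcna window. The Cdk4 window held 4 E-boxes, at bases -172, -118, -98 and -11. At least 1 E-box lay in 7.15% of all windows and 3 or more in 0.0883%. The Cdkn1a window shown, the more upstream of 2 for this gene, held 2 matches to the p53 decamer, at bases -73 and -51. The other Cdkn1a window held 0, and 8.36% of all windows held at least 1. The Cdk4 window and both Cdkn1a windows held 0 of these E2F forms. The motifs were chosen with the sequences in view, and not the same one for every gene. The shares over all windows are therefore a description and no test. A match describes the letters of a window and not binding of a factor.

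The deposited values were intensities on a linear scale, below 0 for some probes on every array, as background subtraction gives. The size of the most negative intensity of an array was taken as its noise bound, below which the size of a value means little. The arrays differed in brightness 4.15-fold, and control 2 stood apart, with 109 of 223 probes above the bound against 143 to 166 on the other arrays. Muscle was well represented, since all 7 fibre markers on the array (Myh7, Myh2, Myh1, Myh4, Mb, Des and Ttn) lay above the bound on all 6 arrays. A level below is the log2 intensity minus the array's median log2 over 152 features, the genes and unnamed probes above 0 on all 6 arrays. Levels carry the affinity of each probe, so those of different genes were not set against each other.

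Transcripts of this group were mostly detected, though often close to the noise. Of the 48 member values (8 genes on 6 arrays), 40 lay above the noise bound, or 83.3%, against 66.4% of the values of all probes. Only Cdk4, Cdkn1a and Rb1 lay above it on all 6 arrays, 3 of 8 or 37.5%, against 47.5% of all 223 probes. The brakes passed in 12 of 12 values, the drivers in 11 of 12 and the replication genes in 17 of 24. Of the 8 values at or below the bound, 5 were from control 2, where Ccnd1, Pcna, Pold1, Pola1 and Top3a all failed. The other 3 were Pola1 in control 1 and Top3a in controls 1 and 3. Without control 2, 6 of the 8 genes lay above the bound on every array, against 129 of all 223 probes. With a stricter bound of 3 times the root mean square of the negative intensities, 1 of the 8 did, which was Rb1. Among all 223 probes, 89 did. Under that bound the brakes passed in 9 of 12 values, the drivers in 9 of 12 and the replication genes in 16 of 24. The share of values over all probes was not counted under it, so these counts have no background beside them.

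**Figure D1:**
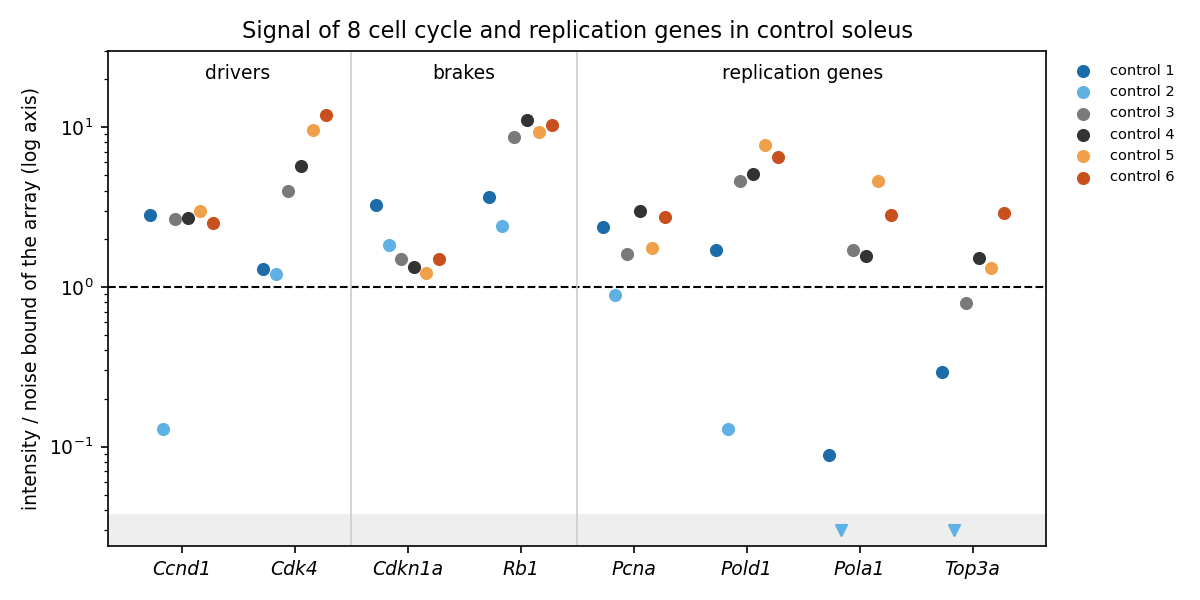
Intensity of each gene divided by the noise bound of its array, on a log axis, for the 6 control samples (colours). The dashed line at 1 is the bound and triangles on the grey band are intensities below 0. All 12 values of the brakes lie above the line, while the replication genes have 7 of 24 values on or under it.

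Cdk4, the kinase of the driver pair, gave intensities of 0.0044, 0.0075, 0.0131, 0.0496, 0.0221 and 0.0214 in controls 1 to 6. These were 1.29, 1.21, 3.97, 5.70, 9.61 and 11.9 times the noise bound, so that controls 1 and 2 were barely above it and the other samples clearly so. Its levels were -1.87, -0.93, -0.88, -0.26, 0.11 and 0.42, a mean of -0.57 ± 0.83 (SD, n = 6). Control 6 was highest and control 1 lowest, 4.88-fold apart.

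Ccnd1, the cyclin partner of Cdk4, was above the bound on 5 arrays. Its intensities were 0.0096, 0.0008, 0.0088, 0.0235, 0.0069 and 0.0045, from 2.50 to 3.00 times the bound in 5 samples and 0.129 times the bound in control 2. The levels of those 5 samples ran from -1.83 in control 6 to -0.75 in control 1, with -1.45, -1.34 and -1.57 in controls 3, 4 and 5. The value in control 2, -4.16, lay far below the bound there, and the smallest step of the deposited table, 0.0001, was already 12.5% of it. The mean was -1.85 ± 1.19 (SD, n = 6), and the SD was 0.40 without control 2. With values raised to the bound, the highest and lowest samples were at least 2.13-fold apart.

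Of the brakes, Rb1 varied less and stood farther above its noise. Its intensities were 0.0124, 0.0148, 0.0287, 0.0965, 0.0213 and 0.0185, which were 3.65, 2.39, 8.70, 11.1, 9.26 and 10.3 times the bound. The levels were -0.38, 0.05, 0.25, 0.70, 0.05 and 0.20, with a mean of 0.15 ± 0.35 (SD, n = 6). The highest sample, control 4, and the lowest, control 1, differed 2.11-fold. Of the 152 features, 119 had a wider spread than Rb1.

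Cdkn1a levels lay in 2 separate sets, the lower of which was close to the noise. Its intensities were 0.0110, 0.0113, 0.0049, 0.0115, 0.0028 and 0.0027. They were 3.24 and 1.82 times the bound in controls 1 and 2, and 1.48, 1.32, 1.22 and 1.50 times in controls 3 to 6. Before centring, control 4 had the highest intensity, so the 2 sets are seen only in the centred levels. The levels were -0.55 and -0.34 in controls 1 and 2, and -2.30, -2.37, -2.88 and -2.57 in controls 3 to 6. No sample lay between -2.30 and -0.55, and the highest and lowest samples, controls 2 and 5, were 5.80-fold apart. The mean was -1.83 ± 1.10 (SD, n = 6), and among the 105 features above the bound on all arrays 1 had a wider spread. Control 2 was the highest array for 41 of the 152 features and control 1 for 51, so Cdkn1a was not alone in this.

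Among the replication genes, Pcna, the clamp that holds polymerases on DNA, varied least. Its intensities were 0.0081, 0.0055, 0.0053, 0.0260, 0.0040 and 0.0049, with control 2 just under its bound at 0.887 times and the others from 1.61 to 2.99 times. The levels were -0.99, -1.38, -2.18, -1.19, -2.36 and -1.71, a mean of -1.64 ± 0.55 (SD, n = 6). Controls 1 and 4 were highest and control 5 lowest, 2.58-fold below control 1.

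Pold1, the polymerase delta subunit, was clearly above the noise in controls 3 to 6. Its intensities were 0.0058, 0.0008, 0.0152, 0.0439, 0.0177 and 0.0117, at 1.71, 0.129, 4.61, 5.05, 7.70 and 6.50 times the bound. Controls 3 to 6 had close levels of -0.66, -0.43, -0.21 and -0.46, control 1 had -1.47 and control 2 had -4.16, below the bound. The mean was -1.23 ± 1.50 (SD, n = 6), and the SD was 0.47 without control 2.

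Pola1 and Top3a passed the bound on the fewest arrays, 4 and 3, and each had an intensity below 0 in control 2, which kept them out of the 152 features. Pola1, the polymerase alpha subunit, gave 0.0003, -0.0008, 0.0056, 0.0135, 0.0106 and 0.0051, at 1.55 to 4.61 times the bound in controls 3 to 6. Its levels there were -2.11, -2.13, -0.95 and -1.65, and the 0.0003 of control 1 was 0.0882 times the bound. Top3a gave 0.0010, -0.0002, 0.0026, 0.0131, 0.0030 and 0.0052, and was above the bound in controls 4, 5 and 6, at 1.51, 1.30 and 2.89 times. Its levels there were -2.18, -2.78 and -1.63. Pola1, Pold1 and Top3a thus had their weakest signals relative to the bound in controls 1 and 2, as did Cdk4 and the brake Rb1. The bound itself lay higher there, at a level of -2.24 in control 1 and -1.21 in control 2 against -3.16 to -2.77 in the other samples, and its part in this was not tested.

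**Figure D2:**
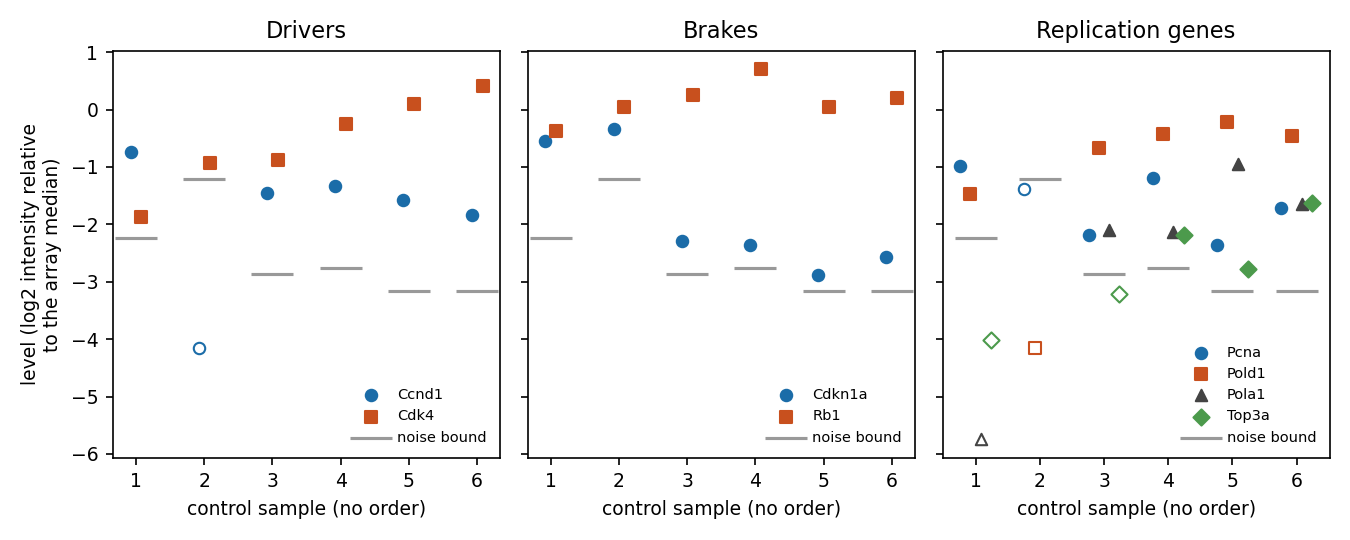
Level of each gene (log2 intensity relative to the array median) in the 6 control samples, for drivers, brakes and replication genes. Open symbols lie below the noise bound of their array, drawn as grey bars, and intensities below 0 have no level. Cdkn1a is high in controls 1 and 2, at -0.55 and -0.34, and Ccnd1 and Pold1 fall under the bound in control 2.

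The spread of each gene over the samples was set against that of features of like intensity. The median SD of the 6 measured genes was 0.96, against 0.54 for all 152 features, and 5 of the 6 lay above that median. It was 0.53 against 0.50 for all features when values were raised to the noise bound, so the wide median rested in part on values below it. Among features above the bound on all arrays it was 0.79 for Cdk4, Cdkn1a and Rb1, against 0.46 for all 105. With limma's one-sided F test of each variance against the value fitted for its intensity, and Benjamini-Hochberg adjustment over the 152, 0 of the 6 passed. The background was 2 of 152, or 1.32%, and at an unadjusted p under 0.05 it was 9 of 152, or 5.92%, which included Pold1. The 2 features that passed had SDs of 4.83 and 7.36 times the fitted value. A smaller excess could therefore be missed with 6 arrays, and failing the test does not show that a spread was ordinary. The SD of Pold1 was 2.57 times the fitted value (limma, unadjusted p = 0.0191, adjusted p = 0.703). Cdk4 followed at 1.83 times (limma, adjusted p = 0.911), Ccnd1 at 1.51 and Cdkn1a at 1.41. Rb1 and Pcna varied less than fitted, at 0.791 and 0.773 times. Without control 2 the order of these 6 genes changed. Cdk4 was then at 2.36 times, Cdkn1a at 1.50, Pold1 at 1.20, Pcna at 1.05, Rb1 at 0.937 and Ccnd1 at 0.799. Pola1 and Top3a, also measured once control 2 was left out, are not in this order. Over the 5 arrays where each had a level, their SDs were 1.87 and 0.92. Both SDs include values below the bound, in control 1 for Pola1 and in controls 1 and 3 for Top3a. With values raised to the bound Pold1 was at 1.13. Over all alternatives, the adjusted p of the 6 measured genes, without Pola1 and Top3a, ran in limma from 0.373 to 0.999. The variation of Cdkn1a was thus wide in itself, but dim features varied widely in these data, and the test does not set it apart from them.

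**Figure D3:**
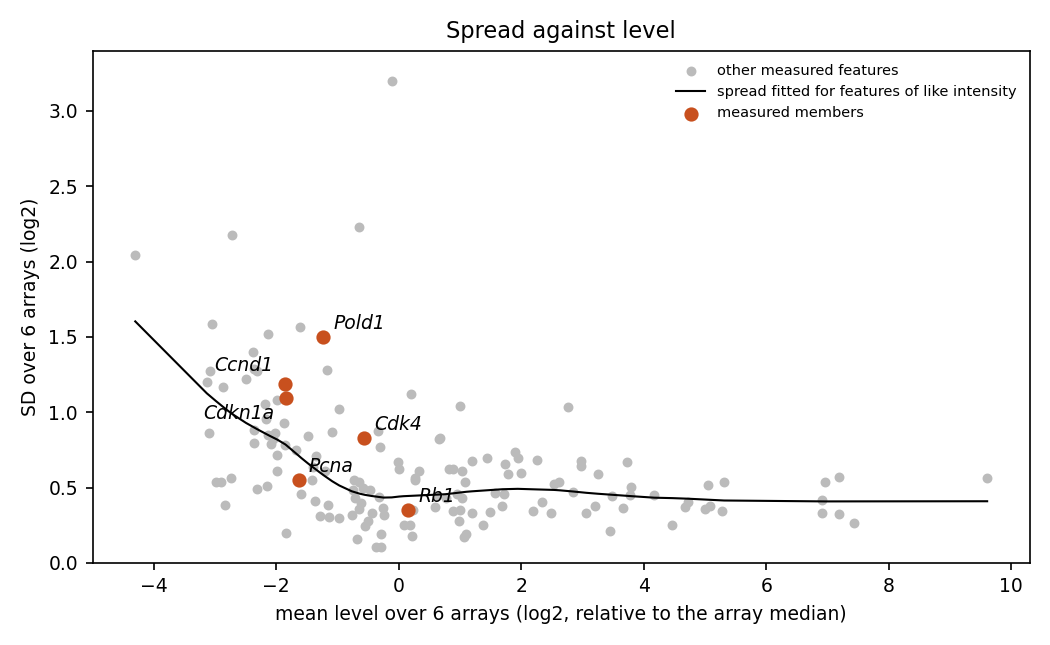
SD over the 6 samples against mean level, for the 6 measured genes of the group (orange) and the other measured features (grey), with the spread fitted by limma as a line. Rb1 and Pcna lie under the line, and Pold1, at an SD of 1.50, lies farthest above it among the 6.

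Differences between drivers, replication genes and brakes were then followed within each array, where the brightness of the array cancels. Each gene was taken as its deviation from its own mean over the samples. The measured replication genes Pcna and Pold1 minus the brakes gave -0.18, -2.03, 0.19, 0.61, 0.72 and 0.69 in controls 1 to 6, on the log2 scale. Controls 3 to 6 thus lay within a 1.44-fold range, and control 2 was far lower. The range over all 6 was 2.75, and 0.89 without control 2, where Pcna and Pold1 were below the bound. With values raised to the bound it was 1.18. The genes within each side did not move alike. Rb1 minus Cdkn1a gave -1.81, -1.59, 0.57, 1.09, 0.95 and 0.80, a range of 2.90 between the brakes themselves. Pcna minus Rb1 gave 1.17, 0.36, -0.65, -0.11, -0.63 and -0.13, highest in controls 1 and 2. Pold1 minus Cdkn1a was lowest there, at -1.52 and -4.42, against 1.03 to 2.06 in controls 3 to 6.

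Drivers minus brakes gave -0.48, -2.03, 0.22, 0.40, 1.04 and 0.84. This difference subtracts the same brake values, so its likeness to the one of the replication genes is no separate result. Control 2 was lowest, and its Ccnd1 value was below the bound. The range was 3.08 with all samples and 1.52 without control 2. Cdk4 and Cdkn1a, both above the noise bound on every array, gave a contrast that rests on no value below that bound. Both ends of the contrast still hold a value close to the noise. Cdk4 was at 1.29 and 1.21 times the bound in controls 1 and 2, and Cdkn1a at 1.22 to 1.50 times in controls 3 to 6. Under the stricter bound, Cdk4 passed on 4 arrays only and Cdkn1a on 3. The ratio of the Cdk4 to the Cdkn1a intensity was 0.4, 0.664, 2.67, 4.31, 7.89 and 7.93 in controls 1 to 6. Its size depends on the 2 probes, but its change between samples does not depend on the scaling of the arrays. The highest and the lowest sample, controls 6 and 1, differed 19.8-fold in this ratio, a log2 range of 4.31. Of the 5460 pairs of features above the bound on all arrays, 35 (0.641%) had a range at least as wide, and the median pair had 1.59. The pair was singled out after its values were seen, so this count is a description. The range was 4.03 after cyclic loess, 5.03 after quantile normalization and 3.58 without control 1. With values raised to the stricter bound it was 4.20.

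**Figure D4:**
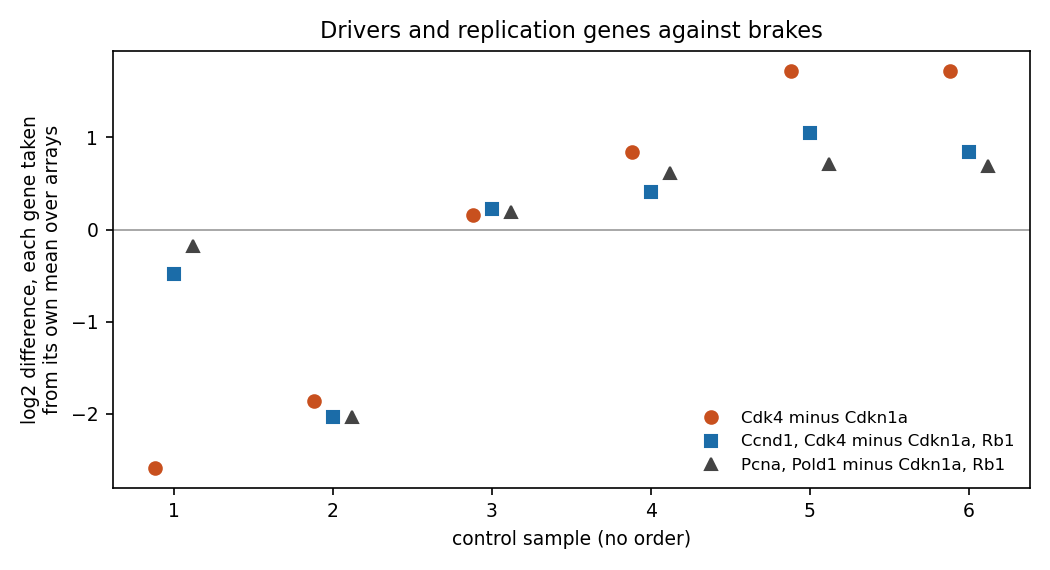
Differences within each array, on the log2 scale, between Cdk4 and Cdkn1a (circles), between drivers and brakes (squares) and between Pcna with Pold1 and the brakes (triangles), each gene taken from its own mean over the 6 samples. Cdk4 minus Cdkn1a spans 4.31, from control 1 to control 6, and the other differences are lowest in control 2, at -2.03 each.

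Other features with the same course over the samples were sought by Pearson's r over the 6 arrays among the 105 features above the bound on all of them. These r values share arrays and centring and are given as a description. Closest to Cdk4 were Ang, the ribonuclease angiogenin, with r = 0.995, and Il6st, the signalling receptor subunit gp130, with r = 0.960. Ang had levels of -0.58, 0.26, 0.34, 0.86, 1.46 and 1.60, lowest in control 1 and highest in control 6 as Cdk4 was. Closest to Cdkn1a were an unnamed probe with r = 0.982 and Myh4, the fast IIB myosin heavy chain, with r = 0.965. Myh4 varied much less, from 3.16 in control 5 to 3.72 in control 1. Closest to Rb1 were Arnt, the partner of hypoxia-inducible factors, with r = 0.913 and the lysosomal membrane protein Scarb2 with r = 0.894. The median r with the other 104 features was -0.52 for Cdk4, 0.55 for Cdkn1a and -0.10 for Rb1. Centring on the array median bears on the signs of these r. Measures of the arrays also differed between samples, with 143 and 109 probes above the bound in controls 1 and 2 and 153, 155, 163 and 166 in controls 3 to 6. Their part in the Cdk4 and Cdkn1a values was not tested.

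Of 81 other cell cycle and DNA genes listed for this tissue, 9 had a probe. The median SD of the 5 measured ones was 0.61, against 0.54 for all features, and 0 of the 5 passed the limma test for spread. Ccna2, the cyclin of S phase and mitosis, and Top2a, the topoisomerase of dividing cells, are classical marks of proliferation. Ccna2 gave -0.0021, -0.0036, -0.0017, -0.0026, 0.0003 and 0.0004, and Top2a gave -0.0010, -0.0027, -0.0016, -0.0052, -0.0008 and 0.0001. Neither came above the bound on any array, nor did Cdk5, a kinase best known from neurons, and Junb, an AP-1 transcription factor. Among all 223 probes, 47 were above the bound on no array. Pcna, Pold1 and Cdk4 were thus detected on arrays where the Ccna2 and Top2a probes gave no signal above noise, which is not the same as no transcript.

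The other 5 had a signal. Cdkn2d, the p19 inhibitor of Cdk4 and Cdk6, was above the bound on 5 arrays, all but control 2, at up to 3.44 times. Its level of -1.59 ± 0.46 (SD, n = 6) had a spread between those of Rb1 and Pcna. The topoisomerases Top1 and Top3b were above the bound on all 6 arrays, at 1.06 to 1.85 and at 1.29 to 3.97 times, with SDs of 0.61 each. Jun, another AP-1 factor, had 5.90 to 45.1 times the bound and an SD of 0.38. Ccna1, the cyclin A known chiefly from male germ cells, had 7.26 to 41.6 times the bound. Of 3 further genes of DNA synthesis and repair on the array, added to the list once the annotation had been seen, the polymerase epsilon subunit Pole2 was above the bound on all 6 arrays, at 4.76 to 25.7 times. The single-strand binding subunit Rpa2 was above it on 2, and the polymerase beta probe on 0.

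**Figure D5:**
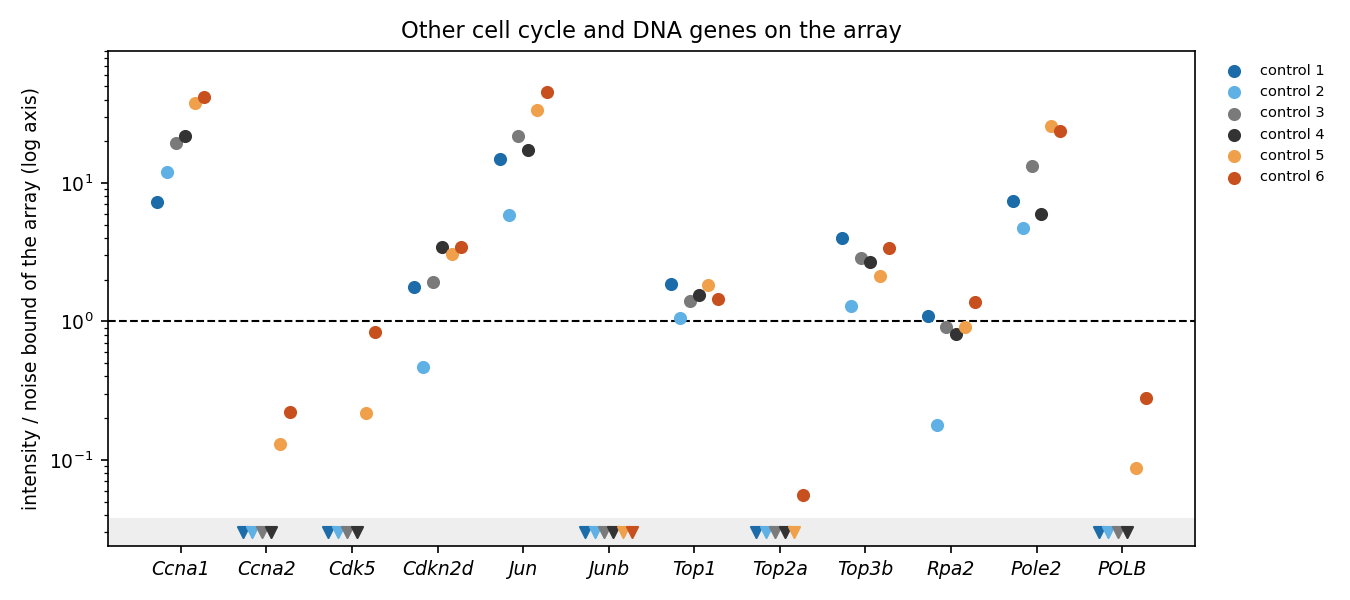
Intensity divided by the noise bound of its array, on a log axis, for 12 other cell cycle and DNA genes in the 6 control samples (colours). The dashed line is the bound and triangles on the grey band are intensities below 0. Ccna1, Jun and Pole2 lie well above the line on every array, and Ccna2, Cdk5, Junb, Top2a and POLB stay under it.

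Markers listed for other cell types were read beside these values. Of the endothelial markers, 4 of 5 on the array (Pecam1, Cdh5, Kdr and Flt1) were above the bound on all 6 arrays and the fifth, Tek, on 5, with a summed intensity of 0.0962 to 0.478 per array. Of the satellite cell and myoblast markers, Myog was above the bound on 6 arrays, Myod1 on 4 and Myf5 on 0, with sums of 0.0081 to 0.0462. Of the fibroblast markers, Pdgfra passed on 5 arrays and 1 of 2 Fn1 probes on 6, and the sums were 0.0607 to 0.308. The adipocyte marker Fabp4 was above the bound on all 6, and 0 of the 5 immune markers listed had a probe. The part of these cells in the signal of the cell cycle genes was not tested.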

How the data were processed

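The deposited table gave 1 intensity for each of 223 probes on 6 arrays. Per the file's values, the deposited intensities were on a linear scale and background had been subtracted. For the scanner, the background method and any scaling, the sources used here give nothing. The platform annotation named 205 probes, and 18 stayed unnamed. Probes above 0 on all 6 arrays (153) were brought to log2, probes of a gene were averaged (152 features), and each array was centred on its median. The noise bound was the size of the most negative intensity of an array. Excess spread was tested with limma 3.58.1 (statmod 1.5.0, R 4.3.3), using a robust prior variance with an intensity trend (6.12 degrees of freedom), a one-sided F test, Benjamini-Hochberg adjustment across all 152 features, called at 0.05. The procedure was tested on simulated data, in which SDs were raised by a larger factor than any member exceeded its fitted value here. Arrays give no counts, and their number limits the precision.

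The members, lists and tests were chosen with earlier results of these data known, and the motifs with the sequences in view. The text names the 8 members, the listed cell cycle and marker genes with a probe, and the 2 features closest to each member above the bound on all arrays. Promoter windows are RefSeq's for GRCm38.p6, matched by gene identifier. Alternatives covered scaling, filters, a pseudocount of 0.001, values raised to the bound, other bounds and priors, and each replicate left out.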

Additional observations from a re-analysis of the deposited data

Results flagged for a closer look

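Single samples stood far from the others in 4 of the 11 measures examined for it, by the gap to the nearest sample relative to the whole range (above 0.625 for 6 samples, 0.71 for 5). Chance flags about 1 in 20 such groups, and 19 of the 152 features (12.5%) met the same rule. The level of Ccnd1 was -4.16 in control 2, with a gap of 0.681 of the range. The level of Pold1 was also -4.16 in control 2, from the same deposited intensity of 0.0008, with a gap of 0.681. The level of Pola1 was -5.75 in control 1, with a gap of 0.754 among the 5 samples that had a level. All 3 values lay below the noise bound of their array. Replication genes minus brakes was -2.03 in control 2, with a gap of 0.675, and it rests on that Pold1 value.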

How the results depend on the processing

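No paired analysis was possible because the labels define 1 group. The count of genes above the noise bound on all arrays was 3, and also 3 with the second most negative intensity as bound. It was 1 with 3 times the root mean square of the negative intensities, and 3 to 6 with each replicate left out, the 6 being without control 2. Of all 223 probes, 106 lay above the noise bound on all arrays, 89 with the stricter bound and 129 without control 2. The median SD of the measured genes, 0.96, was 0.53 with values raised to the bound and 0.75 to 1.06 with each replicate left out. The range of replication genes minus brakes, 2.75, was 1.18 with values raised to the bound and 2.43 to 2.75 with each replicate left out. The 2.43 was without control 2, which brought in Pola1 and Top3a, both below the bound in control 1. With Pcna and Pold1 alone the range without control 2 was 0.89. No value was possible with the filter on the noise bound, which left 0 replication genes. The number of features past the spread test, 2, was 0 after quantile normalization, cyclic loess or the noise-bound filter and without robust estimation or the trend. It was 1 with centring on the 75th percentile, the filter of 4 arrays, the pseudocount or values raised to the bound, and 0 to 2 with each replicate left out. Under every one of these settings 0 members passed. The range of Cdk4 minus Cdkn1a, 4.31, an outcome and set of alternatives added after the data were seen, was 3.58 to 5.03 under all 15 alternatives. Closeness to the noise bound limits the members, of which Rb1 alone passed every bound tried on all arrays.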

Other observations

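Ccna1 gave a clear signal on all 6 arrays while Ccna2 was above the noise bound on 0. Ccna1 intensities were 0.0247, 0.0749, 0.0636, 0.1908, 0.0867 and 0.0748 in controls 1 to 6, lowest relative to the bound in control 1 and highest in control 6. Its level was 1.73 ± 0.65 (SD, n = 6). The Ccna1 probe was 1 of 2 cyclin A probes, and cross-hybridisation was not checked because probe sequences were not used here.

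Pole2, a polymerase epsilon subunit, had intensities of 0.0253, 0.0295, 0.0438, 0.0519, 0.0591 and 0.0427, and a level of 0.88 ± 0.62 (SD, n = 6).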
